A study of Mus musculus with 16 samples.

Results

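The translation initiation and elongation factors described here are 55 genes of the 24421 in the deposited count table. They were chosen by name: symbols of the Eif and Eef families that are also rows of the deposited log2 table of 11843 genes, without the eIF2 kinases and without the Y-linked Eif2s3y. No measured difference between groups is part of that rule, but the families were picked with earlier results of these data known. All 55 passed the filter on low counts, among 11978 genes tested. A further 4 symbols of the same families (Eef1a2, Eif3j1, Eif3j2 and Eif4e1b) are in the count table but not in the log2 table, with 0 counts in all 16 libraries.

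The cells were splenic cDC1s (type 1 conventional dendritic cells, which prime cytotoxic T cells) sorted from C57BL6 mice at steady state, and their RNA was sequenced in bulk. The study compared homeostatic mature with immature cDC1s. The groups were mature and immature cDC1s of Xbp1flIre1fl mice and mature and immature cDC1s of Xbp1fl mice, with 4 libraries each. Both mouse lines carry loxP-flanked alleles: of Xbp1, which drives the unfolded protein response, in each line, and also of the Ire1 sensor in Xbp1flIre1fl. Per the series' design text, the floxed genes were not deleted, so both lines count as functionally wild type and neither is a knockout model. Ages, sort gates and the mice behind each library are not given in the labels, and p-values therefore measure the spread between libraries, which may be technical.

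Translation starts when eIF2 brings the initiator tRNA to the small ribosomal subunit, eIF3 and eIF1 hold the complex open, and the cap-binding complex eIF4F (eIF4E, eIF4G and the helicase eIF4A) recruits it to an mRNA. Elongation factors then deliver aminoacyl-tRNAs and move the ribosome along. Dendritic cells are known to change their rate of protein synthesis when they mature, with control through eIF2 phosphorylation and through mTORC1, which releases eIF4E from its inhibitors.

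Mature cDC1s held lower levels of most factor mRNAs, by modest amounts. Of the 55 factors, 33 fell (60.0%) and 5 rose (9.09%) in mature against immature cDC1s, and 17 did not pass the test (edgeR's quasi-likelihood test, Benjamini-Hochberg adjusted p under 0.05, mean of both genotypes). Over all genes tested, 34.2% fell and 33.4% rose, so the factors were called about as often as other genes (69.1% of factors, against 67.6% of all genes) but in a different balance of directions. The shares of all genes that fell and rose are also the background for the counts by role below. The median log2 fold change was -0.18 over the factors and -0.01 over all genes tested. None of the 55 was called at more than 2-fold, against 12.3% of all genes called higher and 1.45% called lower by that rule. At 1.5-fold the counts were 1 factor higher and 7 lower, against 19.3% and 10.5% of all genes. Scaling moved the balance of all genes: 3213 rose and 5237 fell with upper quartile scaling and 2716 rose and 6091 fell with library sizes alone, against 3995 and 4100 with TMM, and of the factors 3 rose and 37 fell with upper quartile scaling and 3 rose and 48 fell with library sizes. Under each of these scalings 18 of the 55 factors lay above the median of all genes tested. Scaling shifts all genes nearly alike, so it could hardly change that count. The count was 8 of 55 without the filter on low counts and also with DESeq2, where 17229 genes were tested. The counts of factors without overlap between the 8 mature and the 8 immature libraries were 2 higher (18% of all genes) and 24 lower (15% of all genes). As a share of all counts in a library, before any scaling, the 55 factors took 1.18% to 1.33% in mature libraries and 1.5% to 1.58% in immature libraries. A lower share was not particular to the factors. With library sizes alone the median log2 fold change was -0.23 over all genes tested and -0.40 over the factors.

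**Figure D1:**
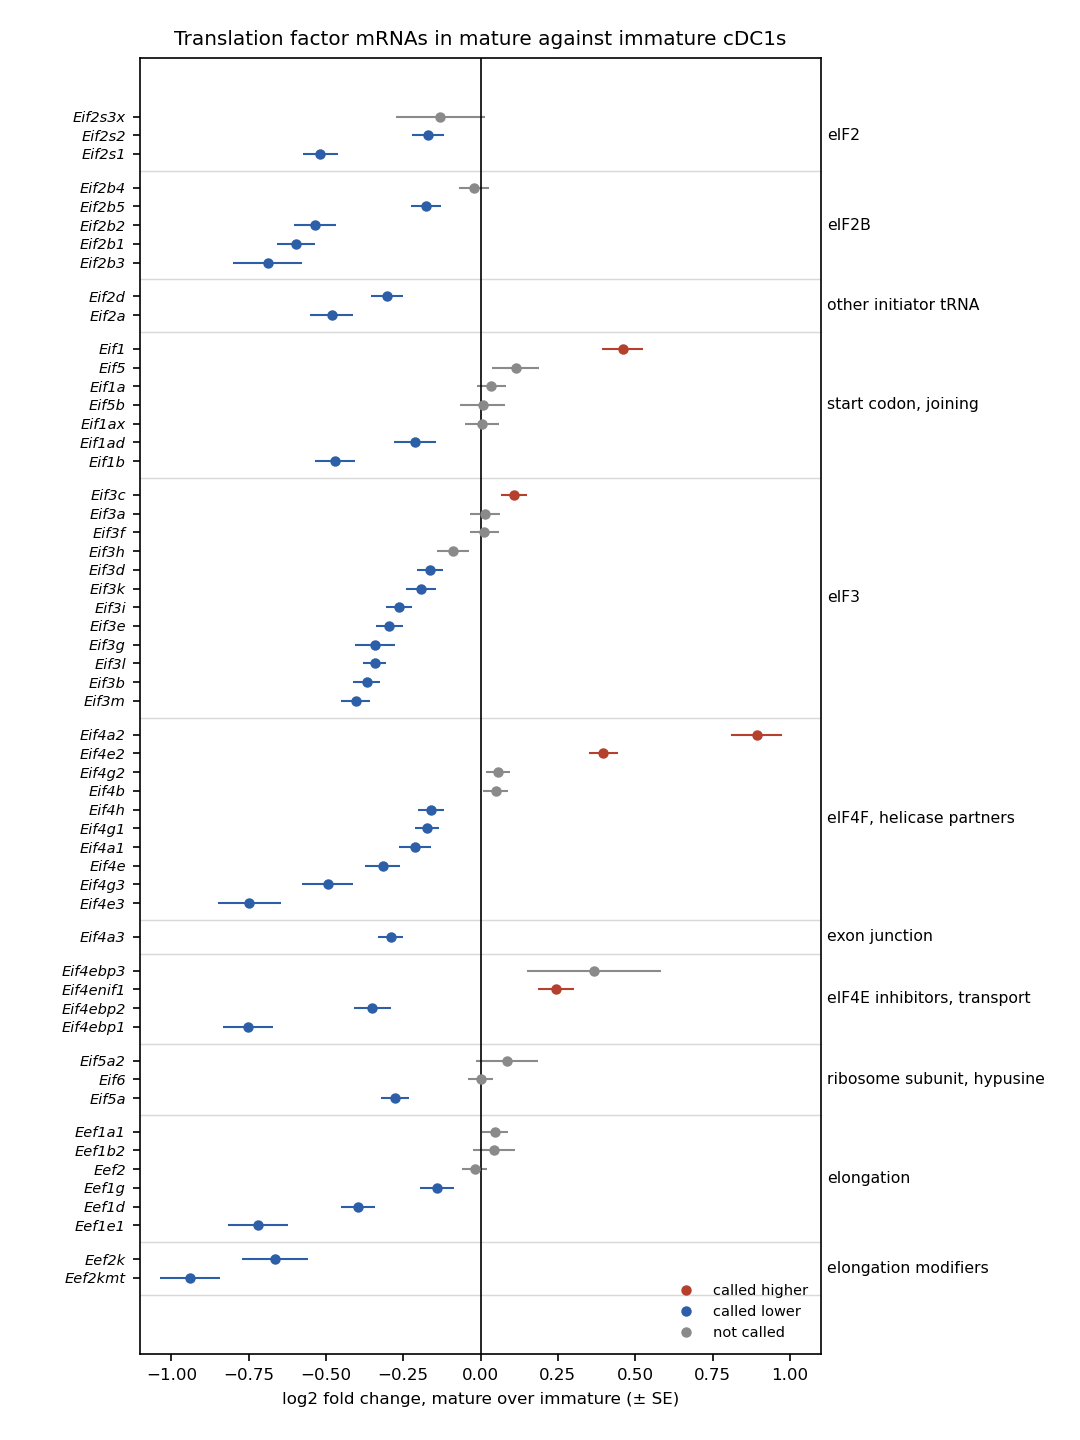
Log2 fold change (mature over immature, mean of both genotypes) of each of the 55 factors, with bars of 1 SE, grouped by role and coloured by call. The 33 factors called lower lie between -0.94 and -0.14 and the 5 called higher between 0.11 and 0.89.

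Sequencing depth and the labels were checked first. Mature libraries held 13948232 to 16572576 counts and immature libraries 15083053 to 17000763, so that 3 counts equal 0.176 to 0.215 CPM before scaling. CPM is a count relative to the library's total, and all levels other than this floor are scaled by the TMM method. Ccr7, the chemokine receptor of maturing dendritic cells, lay at 4988 to 13425 CPM in mature and 107 to 320 CPM in immature libraries. The 6 cDC1 markers summed to 3254 to 4920 CPM in mature and 4866 to 5927 CPM in immature libraries. Markers of several other cell types were also higher in mature libraries: 8 of 8 B cell markers were called higher (summed 294 to 972 CPM in mature, 100 to 155 CPM in immature), 6 of 8 macrophage markers (334 to 747 CPM in mature, 78.4 to 323 CPM in immature), 3 of 5 cDC2 markers (153 to 304 CPM in mature, 57.5 to 94.1 CPM in immature) and 3 of the 4 T cell markers tested (36.3 to 63.7 CPM in mature, 19.1 to 30.7 CPM in immature). The plasma cell list was mixed, with 2 of 4 markers higher and 1 lower (164 to 644 CPM in mature, 175 to 346 CPM in immature). Of 4 plasmacytoid dendritic cell markers none was called higher by edgeR and 1 was called lower (86.5 to 113 CPM in mature, 115 to 130.0 CPM in immature), and neither of the 2 erythroid markers tested was called (4 markers summing to 3.07 to 15.7 CPM in mature, 3.16 to 24.5 CPM in immature). Of the markers in these lists that the table holds, only the erythroid gene Hba-a1 was at 0 in every library. Mature libraries 2 and 4 of Xbp1flIre1fl stood apart from libraries 1 and 3 of that group, with chi-square values per degree of freedom of 37.9 to 61.0 across that divide, against 5.41 to 16.8 within the other 3 groups, and they held the lowest Ccr7 of the mature libraries (6574 and 4988 CPM). In 4 libraries, the mature and immature libraries numbered 4 in Xbp1fl and 3 in Xbp1flIre1fl, Xist was present (61.4 to 69.7 CPM) and Eif2s3y had 0 counts. Without libraries 2 and 4, 33 factors were called lower and 5 higher, and without the 4 Xist libraries 32 and 4. Of all genes, 4275 were called lower and 4175 higher among 12315 tested without libraries 2 and 4. Without the 4 Xist libraries, 3595 were called lower and 3617 higher among 11985 tested. In bulk RNA, fewer cells of a type and less RNA per cell cannot be told apart, and the part of other cell types in the factor differences was not tested.

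Promoters are printed for related pairs that moved in opposite directions and had 1 promoter per gene, Eif4a2 with Eif4a1 and Eif1 with Eif1b. Eif4e2 and Eif4e also moved in opposite directions, but had 3 and 2 promoters and are not printed. Whether these sequences bear on the differences was not tested. RefSeq (GRCm38.p6) gave a promoter, 250 bases before to 50 after the start, for 43 of the 55 factors; the other 12 were Eef1d, Eef1g, Eif1a, Eif2b3, Eif3e, Eif3h, Eif3i, Eif4e3, Eif4ebp1, Eif4ebp3, Eif4g2 and Eif6. The 200 bases before each start are printed 5′ to 3′ on the gene's strand in lower case, with the letters CACGTG in capitals where they occur. Eif4a2 is read from chr16:23107268-23107467 on the + strand, Eif4a1 from chr11:69672424-69672623 on the - strand, Eif1 from chr11:100319749-100319948 on the + strand and Eif1b from chr9:120492406-120492605 on the + strand. All starts and positions here are those of RefSeq. In the GENCODE annotation, used for exons, Eif1b starts at chr9:120492232, so its printed bases lie within that gene. The printed bases of Eif1 and Eif4a2 run past their GENCODE starts (chr11:100319885 and chr16:23107444).
Eif4a2: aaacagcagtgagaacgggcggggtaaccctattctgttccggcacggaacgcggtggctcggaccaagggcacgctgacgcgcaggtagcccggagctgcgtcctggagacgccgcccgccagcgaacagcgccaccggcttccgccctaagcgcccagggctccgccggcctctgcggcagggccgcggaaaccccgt
Eif4a1: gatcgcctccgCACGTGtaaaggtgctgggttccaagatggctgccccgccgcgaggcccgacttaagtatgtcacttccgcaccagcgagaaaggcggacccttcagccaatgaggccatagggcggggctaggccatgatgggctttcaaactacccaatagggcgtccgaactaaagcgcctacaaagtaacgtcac
Eif1: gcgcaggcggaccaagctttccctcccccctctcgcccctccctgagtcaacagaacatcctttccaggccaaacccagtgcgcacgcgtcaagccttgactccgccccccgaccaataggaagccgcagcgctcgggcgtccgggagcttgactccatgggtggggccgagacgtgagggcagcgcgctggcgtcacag
Eif1b: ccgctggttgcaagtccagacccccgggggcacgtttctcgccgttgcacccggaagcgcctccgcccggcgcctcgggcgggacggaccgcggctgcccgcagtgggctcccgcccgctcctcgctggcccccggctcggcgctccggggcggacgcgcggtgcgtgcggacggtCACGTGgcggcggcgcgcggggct

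CACGTG is the palindromic E-box bound by Myc, Max and related factors, and reads the same on both strands. It stood at position -189 from the start in Eif4a1 and at -24 in Eif1b, the members of each printed pair that fell, and was not found in the windows of Eif4a2 and Eif1, which rose. It was present in the windows of 12 of the 43 factors (27.9%), against 8.09% of 27025 mouse genes with such a window. This background, used for each pattern here, includes many genes outside the 11978 tested, and no share over tested genes is given. A gene with several promoters was counted when any of them matched. By call, CACGTG was present in 0 of 5 factors that rose, in 8 of 26 that fell (30.8%) and in 4 of 12 that were not called (33.3%), so its share was alike in factors that fell and factors that did not pass the test. The 8 were Eef2k, Eif1b, Eif3k, Eif4a1, Eif4e, Eif4g1, Eif4h and Eif5a. TGCATCA, the core of the amino acid response element bound by Atf4, was searched on both strands and found in 0 of 43 windows, against 3.63% of all genes. A C followed by at least 4 pyrimidines within 2 bases of the annotated start, a pattern known from mRNAs whose translation follows mTORC1, was found in 8 of 43 factors (18.6%) and in 10.6% of all genes. Those 8 were Eef1a1, Eif1ad, Eif2b5, Eif2s3x, Eif3b, Eif3f, Eif3l and Eif4g1. That search rests on the exact annotated start. A match does not show that translation of an mRNA follows mTORC1, and a missing match, as in Eef2, Eef1b2 and Eif4b, does not show the reverse. These matches describe letters in a window and do not show binding.

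In eIF2, the carrier of the initiator tRNA, Eif2s1 and Eif2s2 fell and Eif2s3x did not pass the test. Eif2s1 encodes the alpha subunit, the one phosphorylated in the integrated stress response. It lay at 128 CPM (lowest), 145 CPM (median) and 175 CPM (highest) in mature libraries, and at 197, 210 and 227 CPM in immature libraries. All 8 mature libraries were below all 8 immature ones, with a log2 fold change of -0.52 ± 0.06 (SE, adjusted p = 3.32e-07). Eif2s2, the beta subunit, differed less, by -0.17 ± 0.05 on the log2 scale (adjusted p = 0.00745), with overlap between the stages.

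Eif2s3x, the X-linked gamma subunit, was not named by the rule for genes and is described because its values follow Xist. In the libraries with Xist it lay at 134 and 139 CPM in mature, against 144 and 153 CPM in immature cDC1s, against 81.2 to 97.9 CPM and 92.1 to 106 CPM in the other 6 mature and 6 immature libraries. The 4 libraries with Xist were thus higher than all 12 others, whatever their stage. With every library in 1 group mean, the stage difference was -0.13 ± 0.14 on the log2 scale (SE, adjusted p = 0.439). Within each pair of same-numbered libraries of a genotype, Eif2s3x was lower in the mature library in 8 of 8 pairs. With the pair as a block the log2 fold change was -0.13 with adjusted p = 0.0259, and without the 4 libraries with Xist it was -0.13 with adjusted p = 0.0432, so that the call rests on how these libraries are treated. Eif1ax, the other X-linked factor, did not separate the libraries in this way: mature libraries with Xist held 44.3 and 48.3 CPM and those without 37.8 to 46.0 CPM.

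**Figure D2:**
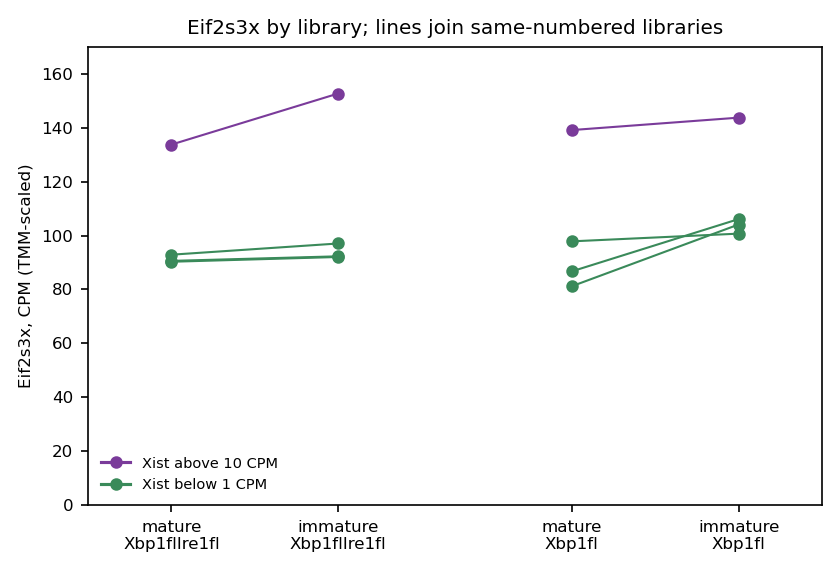
Eif2s3x level (TMM-scaled CPM) in each of the 16 libraries, mature left of immature in each genotype; a line joins the same-numbered libraries of a genotype. The 4 libraries with Xist lie at 134 to 153 CPM and the 12 others at 81.2 to 106 CPM.

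In eIF2B, the exchange factor that recharges eIF2 with GTP, 4 of 5 subunits fell and none rose (median log2 fold change -0.54 over the 5 subunits, against -0.01 over all genes). Eif2b1, the alpha subunit, lay at 22.4, 25.0 and 28.1 CPM (lowest, median and highest) in mature and at 35.5, 37.3 and 43.6 CPM in immature libraries, a log2 fold change of -0.60 ± 0.06 (adjusted p = 1.47e-07). Eif2b2, the beta subunit, lay at 67.8, 97.5 and 101 CPM in mature and at 118, 134 and 146 CPM in immature libraries (-0.54 ± 0.07, adjusted p = 1.54e-06). Eif2b3, the gamma subunit, differed by -0.69 ± 0.11 (adjusted p = 2.75e-05). The stages did not overlap for these 3 subunits. Eif2b5, the catalytic epsilon subunit, fell by 0.18 ± 0.05 on the log2 scale (adjusted p = 0.00408), and its stages overlapped. Eif2b4, the delta subunit, was not called, with a 95% interval of its log2 fold change of -0.12 to 0.08. Per kilobase of annotated exon, the levels of the subunits in immature libraries lay between 2.34 CPM per kb (Eif2b3) and 70.8 CPM per kb (Eif2b2), and in mature libraries those same subunits held 1.45 and 48.8 CPM per kb.

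Eif2a and Eif2d, which can place the initiator tRNA without eIF2, both fell. Eif2a lay at 17.6, 20.3 and 24.0 CPM in mature and at 24.4, 28.8 and 33.4 CPM in immature libraries, without overlap (-0.48 ± 0.07, adjusted p = 9.09e-06). Eif2d differed by -0.30 ± 0.05 (adjusted p = 5.41e-05), with overlap.

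Among the factors of start codon selection and subunit joining, Eif1 rose, Eif1b and Eif1ad fell and 4 were not called. Eif1 encodes the small protein that keeps the scanning ribosome from starting at the wrong codon. It lay at 603, 791 and 825 CPM in mature and at 488, 567 and 608 CPM in immature libraries, with a log2 fold change of 0.46 ± 0.07 (adjusted p = 8.10e-06). Of the 8 mature libraries, 7 were above every immature one, and the exception was mature library 4 of Xbp1flIre1fl. Eif1b, its close paralog, went the other way: 24.1, 27.5 and 35.0 CPM in mature, against 36.7, 39.0 and 40.7 CPM in immature libraries, without overlap (-0.47 ± 0.07, adjusted p = 5.03e-06). Of the exon bases of Eif1b, 12.7% lie opposite exons of D830035M03Rik. Eif1ad, a protein with an eIF1A domain, differed by -0.21 ± 0.07 (adjusted p = 0.00997), and 15.3% of its exon bases lie opposite exons of Banf1. Without the 4 libraries with Xist it lost its call (-0.17, adjusted p = 0.0536). Eif1a and Eif1ax, the paralogs that encode eIF1A, differed by 0.03 ± 0.05 and 0.005 ± 0.06. Eif5, the activator of the eIF2 GTPase, and Eif5b, the GTPase that joins the subunits, had 95% intervals of -0.05 to 0.27 and -0.15 to 0.16 on the log2 scale. Of the exon bases of Eif5b, 16.8% lie opposite exons of Rev1. Eif5 ranged more widely in mature (183 to 286 CPM) than in immature libraries (188 to 225 CPM), a spread that was not tested.

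In eIF3, the multi-subunit scaffold on the small ribosomal subunit, 8 of 12 subunits fell, 1 rose and 3 were not called (median log2 fold change -0.23). Eif3m and Eif3l differed by -0.40 ± 0.05 (adjusted p = 5.86e-07) and -0.34 ± 0.04 (adjusted p = 2.78e-07). Eif3l lay at 126, 134 and 143 CPM in mature and at 166, 169 and 179 CPM in immature libraries, without overlap. Eif3b, Eif3d, Eif3e, Eif3g, Eif3i and Eif3k were the other subunits that fell, by 0.16 to 0.37 on the log2 scale. Of the exon bases of Eif3d, 43.3% lie opposite exons of Gm17638. Eif3c was the subunit called higher, at 199, 207 and 221 CPM in mature, against 175, 194 and 202 CPM in immature libraries, with overlap. Its log2 fold change was 0.11 ± 0.04 (adjusted p = 0.0285) and moved to -0.01 with upper quartile scaling (adjusted p = 0.790) and to -0.12 with scaling by library size alone, where it was called lower (adjusted p = 0.0239), so its direction rests on the scaling. It also lost its call, with adjusted p of 0.0554 to 0.0680, without mature library 3 or immature library 1 of Xbp1fl, or without mature library 3 or immature library 1 or 3 of Xbp1flIre1fl, without the filter on low counts (adjusted p = 0.113) and without the 4 libraries with Xist (adjusted p = 0.133). Eif3a and Eif3f, the large core subunit and an MPN-domain subunit, differed by 0.01 ± 0.05 each, and their signs also turned with those scalings. Eif3h, the most abundant subunit per length, had 126 CPM per kb in mature and 134 CPM per kb in immature libraries and was not called (-0.09 ± 0.05, adjusted p = 0.128).

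The cap-binding complex held the factor with the largest rise and several that fell: of 10 genes of eIF4F and its helicase partners, 2 rose, 6 fell and 2 were not called. Eif4a2 encodes an eIF4A helicase that is also known as a partner of the CCR4-NOT deadenylase. It lay at 84.7, 124 and 145 CPM in mature and at 61.0, 66.6 and 76.8 CPM in immature libraries. All mature libraries were above all immature ones, and the lowest of them was mature library 4 of Xbp1flIre1fl. The log2 fold change was 0.89 ± 0.08 (adjusted p = 4.32e-08), or 1.86-fold between the means of 124 ± 18.6 CPM in mature, against 66.6 ± 4.92 CPM in immature libraries (SD, n = 8 each). Eif4a1, the more abundant helicase, lay at 515, 552 and 658 CPM in mature and at 615, 656 and 686 CPM in immature libraries (-0.21 ± 0.05, adjusted p = 0.00131). The lower Eif4a1 values were in 7 of 8 mature libraries, and mature library 2 of Xbp1flIre1fl lay within the immature range. Several small RNA genes on the same strand share exon bases with Eif4a2, up to 3.33% each (Snora81), and with Eif4a1, up to 3.32% each (Gm22988). A further 3.63% of the exon bases of Eif4a2 lie opposite exons of Rfc4.

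Eif4e2 encodes a cap-binding protein (4EHP) that does not join eIF4G and is known as a repressor of translation. It lay at 85.0, 100 and 106 CPM in mature and at 71.7, 74.3 and 81.8 CPM in immature libraries, without overlap (0.40 ± 0.05, adjusted p = 9.00e-07). Eif4e, the cap-binding subunit of eIF4F, went the other way, at 77.0, 87.6 and 103 CPM in mature, against 101, 111 and 117 CPM in immature libraries (-0.32 ± 0.06, adjusted p = 8.58e-05). Only 1 mature library, library 2 of Xbp1flIre1fl, reached the immature range of Eif4e. Eif4e3, also of the cap-binding family, lay at 8.19, 11.0 and 14.7 CPM in mature and at 15.3, 17.8 and 21.4 CPM in immature libraries, without overlap (-0.75 ± 0.10, adjusted p = 4.10e-06). Of the exon bases of Eif4e3, 14.8% are shared with Gm20696 on the same strand.

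**Figure D3:**
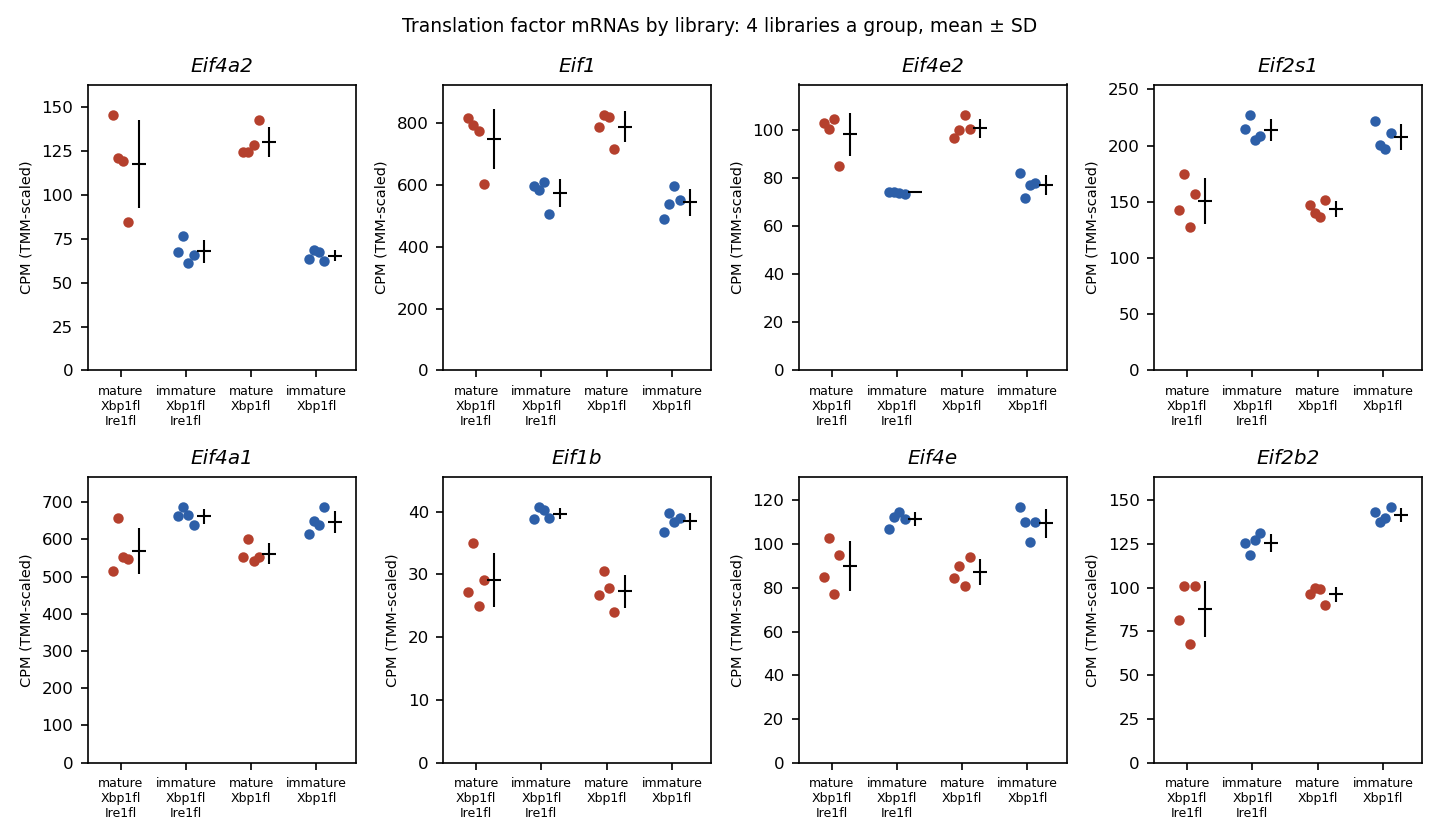
Level (TMM-scaled CPM) of Eif4a2, Eif4a1, Eif1, Eif1b, Eif4e2, Eif4e, Eif2s1 and Eif2b2 in each library, by group, with the mean and SD of 4 libraries beside the points. Eif4a2, Eif1 and Eif4e2 are higher and the other 5 lower in mature cDC1s of both genotypes; mature library 4 of Xbp1flIre1fl has the lowest mature value of Eif4a2 (84.7 CPM), Eif1 (603 CPM) and Eif4e2 (85.0 CPM).

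The scaffolds of eIF4F fell and their relative without an eIF4E site was not called. Eif4g3 lay at 78.8, 107 and 132 CPM in mature and at 132, 151 and 172 CPM in immature libraries, without overlap (-0.49 ± 0.08, adjusted p = 3.92e-05). Eif4g1 differed by -0.17 ± 0.04 (adjusted p = 0.000573), also without overlap. Eif4g2 (DAP5), which initiates without eIF4E, had 941, 999 and 1042 CPM in mature, against 922, 955 and 992 CPM in immature libraries (0.06 ± 0.04, adjusted p = 0.224), and its sign turned with upper quartile and library-size scaling. Of the helicase stimulators, Eif4h fell (-0.16 ± 0.04, adjusted p = 0.00208) and Eif4b was not called (0.05 ± 0.04). Eif4a3, the relative of eIF4A that sits in the exon junction complex and not in eIF4F, fell by 0.29 ± 0.04 on the log2 scale (adjusted p = 4.59e-06), without overlap.

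Among the proteins that bind and restrain eIF4E, 2 fell and 1 rose. Eif4ebp1, the mTORC1-controlled inhibitor, lay at 17.2, 18.9 and 23.4 CPM in mature and at 28.9, 32.2 and 39.0 CPM in immature libraries, without overlap (-0.75 ± 0.08, adjusted p = 2.12e-07). Eif4ebp2 differed by -0.35 ± 0.06 (adjusted p = 4.68e-05), with overlap. Eif4enif1, the transporter that carries eIF4E to the nucleus and to P-bodies, rose by 0.24 ± 0.06 (adjusted p = 0.00137), with overlap, and its call was lost with upper quartile scaling (0.12, adjusted p = 0.0844) and with library-size scaling (0.02, adjusted p = 0.816). Eif4ebp3 was the factor with the fewest counts, at 1.24 to 2.29 CPM in mature and 0.861 to 2.096 CPM in immature libraries, and 67.3% of its exon bases are shared with another annotated gene on the same strand. Its 95% interval reached from a log2 fold change of -0.09 up to 0.82, and it did not pass the test (adjusted p = 0.144).

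Eif5a, the hypusine-carrying factor that relieves stalled ribosomes, lay at 827, 896 and 985 CPM in mature and at 1051, 1083 and 1146 CPM in immature libraries, without overlap (-0.28 ± 0.05, adjusted p = 4.05e-05). Eif5a2, its rare paralog, was not called (0.08 ± 0.10). Eif6, which keeps the large subunit from joining too early, averaged 123 ± 5.54 CPM in mature, against 123 ± 3.73 CPM in immature libraries (SD, n = 8 each), with a 95% interval of -0.08 to 0.08 on the log2 scale.

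The elongation factors differed by part of the machinery. Eef1a1 and Eef2, the GTPases that deliver aminoacyl-tRNA and translocate the ribosome, were not called. Eef1a1 lay at 3886, 3999 and 4396 CPM in mature and at 3691, 3959 and 4187 CPM in immature libraries, with a 95% interval of -0.04 to 0.14 on the log2 scale. Eef2 had 1053, 1106 and 1172 CPM in mature, against 1034, 1096 and 1250 CPM in immature libraries, with an interval of -0.11 to 0.07; with upper quartile scaling it was called lower (-0.14, adjusted p = 0.00790). Of the exchange factor that recharges eEF1A, Eef1d fell (-0.40 ± 0.05, adjusted p = 4.84e-06, without overlap), Eef1g fell less (-0.14 ± 0.05, adjusted p = 0.0277, with overlap) and Eef1b2 was not called (0.04 ± 0.07). Eef1g lost its call, with adjusted p of 0.0510 to 0.0637, when mature library 1 or 4 of Xbp1fl, or mature library 3 or immature library 1 or 2 of Xbp1flIre1fl, was left out, and also without the 4 libraries with Xist (-0.14, adjusted p = 0.0625). Eef1e1, a scaffold of the tRNA synthetase complex, lay at 15.97, 21.0 and 28.4 CPM in mature and at 31.6, 36.7 and 39.6 CPM in immature libraries (-0.72 ± 0.10, adjusted p = 3.37e-06).

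The enzymes that modify eEF2 both fell, and Eef2kmt had the largest fall of the 55 genes. Eef2kmt, a lysine methyltransferase of eEF2, lay at 7.95, 11.3 and 12.4 CPM in mature and at 17.8, 19.8 and 23.6 CPM in immature libraries, without overlap (-0.94 ± 0.10, adjusted p = 1.62e-07). Of its exon bases 17.6% lie opposite exons of Alg1, and whether reads were counted by strand is not given in the sources used here. Eef2k, the kinase that phosphorylates eEF2 and slows elongation, lay at 13.4, 18.9 and 25.1 CPM in mature and at 28.02, 29.5 and 35.8 CPM in immature libraries, without overlap (-0.67 ± 0.11, adjusted p = 2.89e-05).

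Opposite or unequal differences of related factors changed the make-up of several pairs. Shares were computed per library from CPM per kb of exon, are descriptions without a test, and shift with the exon length used. Eif4a2 made up 11.2% to 18.6% (median 15.2%) of Eif4a2 plus Eif4a1 in mature libraries and 6.88% to 8.34% (median 7.72%) in immature libraries. Eif4e2 made up a median of 47.4% of Eif4e2 plus Eif4e in mature and 35.1% in immature libraries. Eif1b made up a median of 5.95% of Eif1b plus Eif1 in mature and 11.6% in immature libraries. In none of these 3 pairs did the shares of the stages overlap. Eif4g2 also showed no overlap against Eif4g1, with smaller distance (75.7% in mature and 72.3% in immature libraries). The stages overlapped in the other 6 pairs, among them Eif1a with Eif1ax (73.7% in both stages), Eif4g3 with Eif4g1 (23.7% in mature and 28.01% in immature libraries) and Eif2d with Eif2a (54.1% in mature and 50.6% in immature libraries). Because paralogs share sequence and the treatment of reads that match several genes is not given in the sources used here, part of the reads of Eif1 and Eif1b, or of Eif4a1 and Eif4a2, may be assigned to the wrong member.

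**Figure D4:**
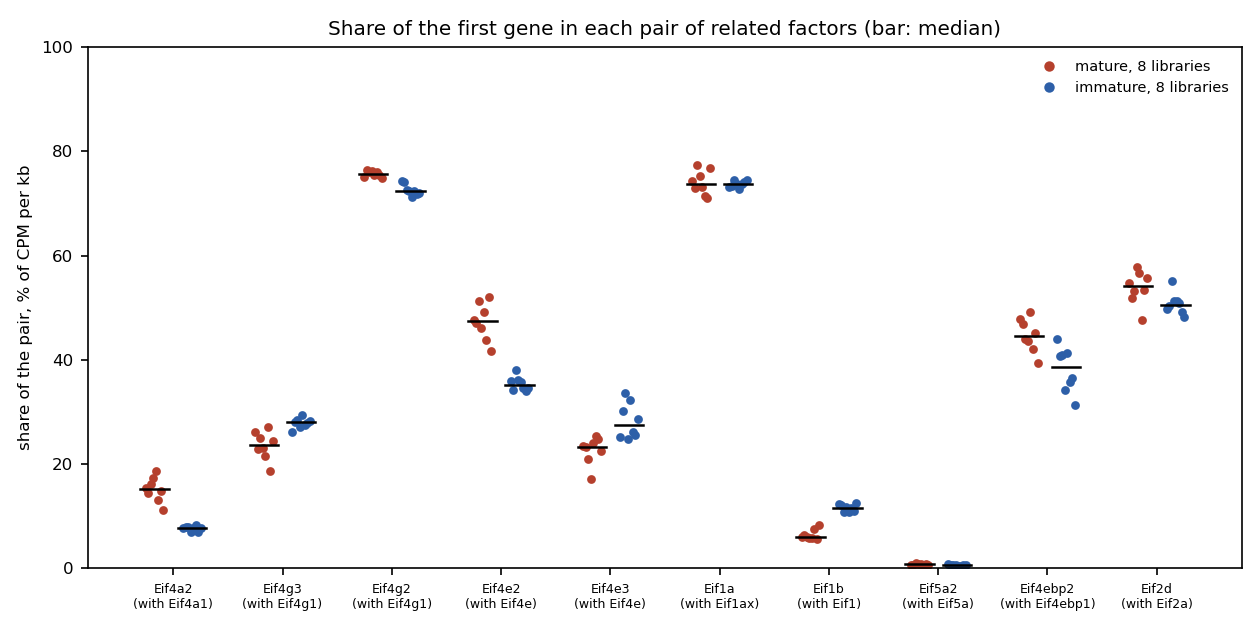
Share (%) of the gene named on top in the summed CPM per kb of each pair of related factors, 8 mature libraries left of 8 immature libraries, with a bar at the median. Mature and immature libraries are parted for Eif4a2, Eif4g2, Eif4e2 and Eif1b and overlap in the other 6 pairs.

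The stage difference was seen in both genotypes, which share no library. Within Xbp1flIre1fl, 31 factors were called (53.5% of all genes), 3 higher (27.4% of all genes) and 28 lower (26.1%). Within Xbp1fl, 35 were called (56.8% of all genes), 4 higher (28.4% of all genes) and 31 lower (28.3%). Of these, 30 were called in both, and the share of all genes called in both is not given here. All 38 factors called in the mean contrast had the same sign in both genotypes. The 38 were selected by the mean of these same contrasts, so their shared sign was close to fixed in advance. Eif4a2 rose by 0.80 ± 0.12 in Xbp1flIre1fl and 0.99 ± 0.12 in Xbp1fl on the log2 scale. Eif4g3 differed by -0.62 ± 0.12 in Xbp1flIre1fl and by -0.37 ± 0.12 in Xbp1fl, and Eif2d by -0.16 ± 0.07 in Xbp1flIre1fl and by -0.44 ± 0.07 in Xbp1fl. The test of the difference between the genotypes called none of the 55 factors and 0 of all genes (edgeR), and at an unadjusted p under 0.05 it named 1 factor, Eif2d (0.29 ± 0.10, unadjusted p = 0.0131, adjusted p = 1.00).

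**Figure D5:**
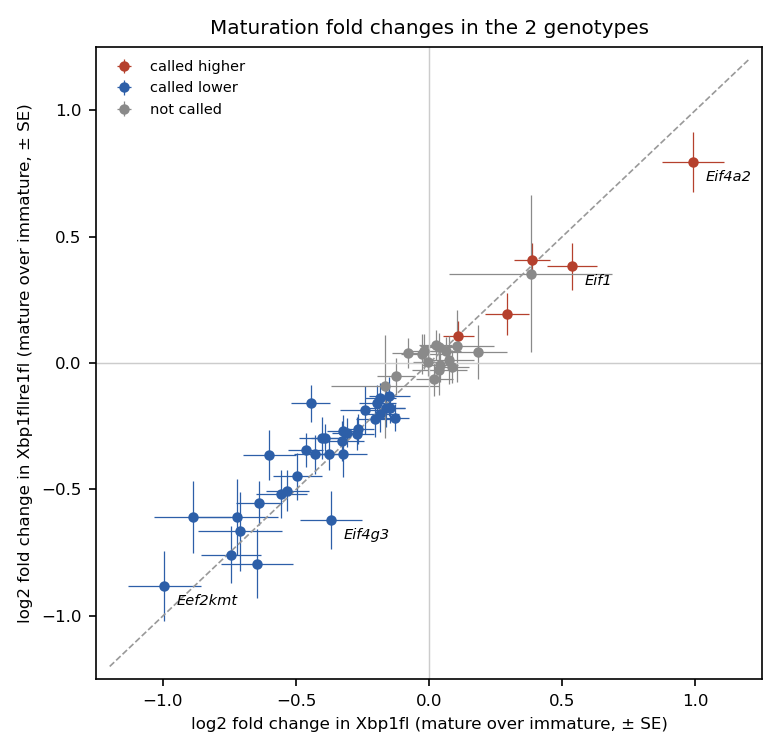
Log2 fold change (mature over immature, ± 1 SE) of the 55 factors within Xbp1flIre1fl (vertical) against within Xbp1fl (horizontal), with the line of equal change. Eif4a2 (0.80 in Xbp1flIre1fl, 0.99 in Xbp1fl) and Eef2kmt (-0.883 in Xbp1flIre1fl, -0.995 in Xbp1fl) lie at the ends, and none of the 55 differed between genotypes in the interaction test.

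Between the floxed lines at the same stage, no factor was called. Xbp1flIre1fl against Xbp1fl gave 0 factors in mature cDC1s (0.142% of all genes) and 0 in immature cDC1s (0.134% of all genes) by edgeR, and also 0 by DESeq2 and limma. At an unadjusted p under 0.05, Eif5a2 differed in mature cDC1s (-0.30 ± 0.14, adjusted p = 0.790), and Eef2 (-0.17 ± 0.06, adjusted p = 0.862) and Eif2d (-0.24 ± 0.07, adjusted p = 0.629) differed in immature cDC1s. When mature libraries 2 and 4 of Xbp1flIre1fl were both left out, Eif2b2 was called lower in mature Xbp1flIre1fl than in mature Xbp1fl cDC1s (-0.37, adjusted p = 0.0272). The share of all genes called between the lines in that fit is not given here.

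Other genes of the translation pathway were counted in the same way, with no test of a difference between lists. For each list here and in the next paragraph, the background is 33.4% of all genes tested called higher and 34.2% called lower. Of 17 regulators of cap binding and mTORC1, 7 rose, 3 fell and 7 were not called. Those that fell were Deptor (-0.81 ± 0.10), Mknk1 (-0.31 ± 0.06) and Rps6kb1 (-0.24 ± 0.05). Mknk2, Pdcd4, Rptor, Sesn1, Sesn2, Tsc1 and Tsc2 rose. Rptor, the mTORC1 scaffold, averaged 99.6 ± 20.1 CPM in mature, against 33.1 ± 2.72 CPM in immature libraries (1.59 ± 0.11), and Pdcd4, an inhibitor of eIF4A, averaged 86.6 ± 26.9 CPM in mature, against 44.5 ± 8.93 CPM in immature libraries (0.95 ± 0.12). Of 7 eIF2 kinases and phosphatase subunits, 1 rose and 4 fell. The one that rose was Ppp1r15a, the stress-induced subunit that dephosphorylates eIF2, at 751 ± 132 CPM in mature, against 284 ± 29.7 CPM in immature libraries (1.40 ± 0.10). Atf4, the transcription factor translated when eIF2 is phosphorylated, was not called at the mRNA level (0.06 ± 0.05).

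Of 83 cytosolic ribosomal protein genes, 5 rose, 13 fell and 65 were not called, with a median log2 fold change of -0.05. Of 10 mitochondrial translation factors, 2 rose and 6 fell. Mtif3, a mitochondrial initiation factor, rose most among them (1.74 ± 0.13). Of 7 termination and recycling factors tested, 1 rose and 4 fell, among them Abce1, which splits the ribosome (-0.61 ± 0.07), and of 9 hypusine and diphthamide enzymes 4 fell and none rose. None of 5 poly(A)-binding genes was called by edgeR. All 10 proliferation genes fell (median -0.87), and their part in the factor differences was not tested. Among 9 Myc-family and stress regulators tested, 4 rose and 2 fell. Mxd1, a Max partner that opposes Myc, averaged 1600 ± 438 CPM in mature, against 75.3 ± 6.57 CPM in immature libraries (4.41 ± 0.17). Myc averaged 46.1 ± 17.7 CPM in mature, against 28.6 ± 4.51 CPM in immature libraries (0.67 ± 0.20). Mycl averaged 408 ± 85.6 CPM in mature, against 711 ± 65.6 CPM in immature libraries (-0.80 ± 0.11). Mxd3 also fell (-1.05 ± 0.14), and Mxi1 (0.48 ± 0.15) and Ddit3 (0.39 ± 0.12) also rose.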

How the data were processed

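The build mm10 and the tools TopHat2 2.1.0, Trimmomatic 0.35, limma 3.42.2, SAMtools 0.1.19 and FastQC 0.11.4 are listed, without roles, in the submitters' processing notes; the read counter, annotation, strandedness and treatment of reads matching several genes are not given in the sources used here. The authors deposited raw counts per gene symbol and a table of log2 values, whose normalization is not stated; the counts were used here, and the log2 table chose the members and served as an alternative.

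In R 4.3.3, edgeR 4.0.16 (filterByExpr, TMM, 4 group means over 16 libraries, robust quasi-likelihood F-test, 12 residual degrees of freedom) gave log2 fold changes, with SE as the absolute log2 fold change over the square root of F. P-values were adjusted by Benjamini-Hochberg over the 11978 genes tested, and a call needed an adjusted p under 0.05. The fit was also run on counts simulated from its own estimates. Those counts were independent between libraries, so that run cannot show whether the fit suits these data. Levels are TMM-scaled CPM, and per-length levels use the union of GENCODE exons of mm10. Floors and intervals of counts cover counting error only.

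Same-numbered mature and immature libraries of a genotype deviated together (r of 0.25 to 0.51 over 7881 genes in 8 of 8 pairs); across genotypes r was above 0.1 in 5 of 16 pairs. No pair of libraries agreed within sampling noise. Alternatives were other scalings, no filter, no robust estimation, DESeq2 1.42.0, limma 3.58.1, replicate blocks, a test against 2-fold and left-out libraries.

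The members and all lists were chosen with earlier results of these data known. Values are given by rule for the 2 members with the smallest adjusted p and the most abundant member of each role, the 10 largest changes each way, and the paralog pairs; other genes were named after their values were seen.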

Additional observations from a re-analysis of the deposited data

Results flagged for a closer look

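Single libraries stood apart from the other 3 of their group in 6 of 220 group values screened, and chance alone would mark about 1 in 20 such groups. For Eif2s3x these were immature library 4 of Xbp1fl (144 CPM, next highest 106 CPM), mature library 3 of Xbp1flIre1fl (134 CPM, next 92.9 CPM) and immature library 3 of Xbp1flIre1fl (153 CPM, next 97.1 CPM), all of them libraries with Xist. Eif1ad was highest in mature library 2 of Xbp1fl (38.2 CPM, next 31.6 CPM). Eif2a was highest in mature library 2 of Xbp1flIre1fl (24.0 CPM, next 20.3 CPM), a library that stood apart over all genes. Eif2b1 was highest in immature library 4 of Xbp1fl (43.6 CPM, next 37.8 CPM).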

How the results depend on the processing

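The called factors kept their direction and call in 1008 of 1026 checks over 27 alternatives, and 1391 of 1485 checks over all 55 factors changed neither. With upper quartile and library-size scaling the median log2 fold change of all genes moved to -0.13 and -0.23, against -0.01 with TMM; 3 factors (Eif4a2, Eif1 and Eif4e2) were then called higher in each, and 40 and 51 were called in all. Eef2kmt passed 2-fold in both, as 1 factor did without mature libraries 2 and 4 of Xbp1flIre1fl, where 1 factor was also called between genotypes in mature cDC1s. Signs turned with upper quartile scaling for Eef1a1 (-0.074), Eef1b2 (-0.078), Eif1a (-0.087), Eif1ax (-0.12), Eif3a (-0.11), Eif3c (-0.013), Eif3f (-0.11), Eif4b (-0.072), Eif4g2 (-0.065), Eif5 (-0.0068), Eif5a2 (-0.037) and Eif5b (-0.11). With library sizes they turned for Eef1a1 (-0.18), Eef1b2 (-0.18), Eif1a (-0.19), Eif1ax (-0.22), Eif3a (-0.21), Eif3c (-0.12), Eif3f (-0.21), Eif4b (-0.18), Eif4g2 (-0.17), Eif5 (-0.11), Eif5a2 (-0.14) and Eif5b (-0.22). Of these, only Eif3c was called with TMM. Eef2, Eif2b4, Eif3h and Eif6, not called with TMM, were called lower with both scalings, Eif4g2 was called higher by DESeq2 (0.067) and Eif3h was called lower without mature library 2 of Xbp1fl (-0.12). Values near 0 also turned: Eif6 with RLE (0.014), DESeq2 (0.011), limma (0.0039) and without mature libraries 2 and 4 of Xbp1flIre1fl (0.022); Eif1ax (-0.013), Eif3a (-0.0029), Eif3f (-0.0057) and Eif5b (-0.011) without the filter; Eif3a (-0.0028) and Eif5b (-0.050) without libraries 2 and 4; and Eif1ax (-0.034) without the libraries with Xist. Leaving out 1 library at a time, the factors whose sign turned ranged between -0.00085 and 0.074 for Eef1b2, -0.019 and 0.037 for Eif1ax, -0.041 and 0.0025 for Eif2b4, -0.0095 and 0.029 for Eif3a, -0.016 and 0.039 for Eif3f, -0.037 and 0.037 for Eif5b, and -0.022 and 0.012 for Eif6, and 36 to 39 factors were called (4 to 5 higher, 32 to 34 lower). Of all genes, 3823 to 4084 were called higher and 3942 to 4182 lower in those fits, among 12104 to 12144 tested. Per length of the longest transcript, the shares (median in mature, then immature libraries) were 20.5% and 10.8% for Eif4a2, 61.8% and 49.3% for Eif4e2, 4.15% and 8.24% for Eif1b, 20.2% and 23.9% for Eif4e3, 80.1% and 80.0% for Eif1a, 0.456% and 0.338% for Eif5a2, 58.5% and 55.0% for Eif2d, and 29.0% in immature libraries for Eif4g3. With the pair of same-numbered libraries within a genotype as a replicate block, 39 factors were called, Eif2s3x being added, and no other call changed. Of all genes, 4099 were then called higher and 4248 lower. With the numbers 1 to 4 as a replicate block across genotypes, 38 factors were called, and of all genes 4066 higher and 4176 lower. The causes of these shifts were not tested. Eif4ebp3 had the fewest counts of the 55 factors (0.861 to 2.29 CPM), and whether depth limited its test was not tested. The 14 factors within 0.1 of 0 on the log2 scale were not called. The replicate block within genotypes and the omission of the libraries with Xist were chosen after seeing the data.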
